A study of Rattus norvegicus with 48 samples.

Results

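Tazemetostat is an inhibitor of EZH2, the enzyme of the Polycomb repressive complex 2 (PRC2) that methylates lysine 27 of histone H3. Its transcriptional effect was measured here in rat cortical cultures that received no cocaine. Of the 48 RNA-seq libraries of the series, 12 entered the comparison, 3 in each of 4 groups. Tazemetostat cultures (3 µM) were compared with untreated Control cultures, and Tat-Tazemetostat cultures (Tat at 6 ng/mL with tazemetostat at 3 µM) were compared with Tat cultures (Tat at 6 ng/mL). The mean of both differences, with 1 mean per group, is called the pooled effect, and each background is also given apart. Tat, a protein of HIV-1 that activates viral transcription, was used as the 1-86 form and was present with the compound for 48 h. The cultures came from cortex of Sprague-Dawley fetuses of embryonic day 18 and were treated at 21 days in vitro. The labels name no separate vehicle for tazemetostat, and nothing in them says whether the 3 cultures of a group came from separate litters. The p-values thus measure only a spread between cultures. That spread was estimated within the groups of all 48 libraries, not of the 12 alone.

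PRC2 is a multi-subunit complex in which EZH2, or the related EZH1, is the catalytic subunit, while EED and SUZ12 are needed for its activity. The trimethyl mark it places, H3K27me3, lies over the promoters of silent developmental genes and is lost by dilution and by demethylases when EZH2 is inhibited. Lysosomes, to which several of the genes below belong, break down proteins, lipids and sugars with acid hydrolases, and microglia, the phagocytes of the brain, are rich in them. Many lysosomal genes are controlled by the factors TFEB, TFE3 and MITF, which bind short E-box motifs.

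The values are CPM, the reads of a gene scaled to the size of its library and corrected by TMM for differences in composition, and fold changes are differences on the scale log2(CPM + 0.5). The FDR given is that of limma over the 15890 genes tested, and a gene was said to rise or fall where it was below 0.05. The depth of the 12 libraries, estimated from the CPM that 1 read is worth, was 19.3 to 26.7 M reads on genes. The labels call the cells neurons, but the markers fixed for the cell types showed a mixed culture: the neuronal markers summed to 1702 to 5565 CPM and the astrocyte markers to 6853 to 14420 CPM in the 12 libraries. The myeloid markers were also present, with 0 of the 13 at 0 in all 12 libraries. Tat-Tazemetostat replicate 2 stood apart from its group. Its 13 myeloid markers summed to 7380 CPM against 2797 and 3056 CPM in replicates 1 and 3, and its neuronal markers to 1702 CPM against 2926 and 4124 CPM. Tat replicate 2 departed in the same directions. Its myeloid markers summed to 5828 CPM against 4150 and 2871 CPM in Tat replicates 1 and 3, and its neuronal markers to 2037 CPM against 3637 and 3618 CPM. Tat replicate 2 was kept in the fits that left out Tat-Tazemetostat replicate 2, which therefore were not balanced for these markers. Where leaving Tat-Tazemetostat replicate 2 out moved a value by more than 1.5 times or changed its sign, both values are given for the lists described.

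Tazemetostat raised 7 genes over both backgrounds and lowered none that passed the test. They were Gpnmb, a glycoprotein of lysosomes and of lipid-laden phagocytes, Ctsd, the lysosomal aspartic protease cathepsin D, Atg5, a protein needed for the growth of autophagosomes, Snx8, a sorting nexin of endosomes, Sptlc1, a subunit of the first enzyme of sphingolipid synthesis, Nt5dc2, of the family of nucleotidase-domain proteins, and the transcript AC128792.2. These 7 were 0.0441% of the genes tested. At an unadjusted p under 0.05, 739 genes were higher (4.65%) and 489 lower (3.08%), with a median log2 fold change of -0.002 over all genes tested. The median size of the pooled effect was 0.086 on the log2 scale, below its median standard error of 0.119.

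The bases before the start sites of the genes that rose are shown because the E-box CACGTG, and its variant TCATGTG to which MITF binds, are what the lysosomal factors recognise. They were read from RefSeq on build GRCr8, in which 6 of the 7 genes were found, and run from 250 bases before the start to the last base before it. Capitals mark CACGTG, or TCATGTG on either strand. Gpnmb is on chromosome 4, plus strand, chr4:79340878-79341127. Ctsd is on chromosome 1, minus strand, chr1:206968822-206969071. Snx8 is on chromosome 12, plus strand, chr12:19365505-19365754. Atg5 is on chromosome 20, plus strand, chr20:49380585-49380834.
Gpnmb: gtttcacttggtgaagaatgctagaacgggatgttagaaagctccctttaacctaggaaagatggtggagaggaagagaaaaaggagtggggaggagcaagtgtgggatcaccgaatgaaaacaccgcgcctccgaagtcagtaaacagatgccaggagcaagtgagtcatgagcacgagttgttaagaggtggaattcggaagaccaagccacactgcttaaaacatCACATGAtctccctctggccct
Ctsd: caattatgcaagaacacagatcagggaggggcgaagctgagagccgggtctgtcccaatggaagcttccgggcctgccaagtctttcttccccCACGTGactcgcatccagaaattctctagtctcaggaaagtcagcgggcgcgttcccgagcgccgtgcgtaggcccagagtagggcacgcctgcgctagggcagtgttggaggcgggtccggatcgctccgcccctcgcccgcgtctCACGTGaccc
Snx8: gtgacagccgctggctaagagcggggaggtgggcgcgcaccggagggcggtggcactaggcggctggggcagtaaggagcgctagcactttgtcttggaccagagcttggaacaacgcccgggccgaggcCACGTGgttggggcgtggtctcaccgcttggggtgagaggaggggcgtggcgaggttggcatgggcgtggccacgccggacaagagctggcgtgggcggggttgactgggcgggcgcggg
Atg5: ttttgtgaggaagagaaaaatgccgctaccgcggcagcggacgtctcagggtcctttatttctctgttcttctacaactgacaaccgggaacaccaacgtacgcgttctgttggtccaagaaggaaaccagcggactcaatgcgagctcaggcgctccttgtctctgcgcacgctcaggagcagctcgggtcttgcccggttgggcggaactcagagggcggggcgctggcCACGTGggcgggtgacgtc
Ctsd held CACGTG at 157 and at 10 bases before its start, Snx8 at 120 bases and Atg5 at 19 bases. Gpnmb held TCATGTG on the opposite strand, 22 bases before its start. Neither motif was found in the same window of Sptlc1 or Nt5dc2. On either strand, CACGTG was present in 5.8% of all 27457 promoters of the same length, in 7.9% of the 11225 promoters of genes tested, and in 18.3% of the 60 promoters found for the lysosomal genes described below. TCATGTG was present in 3.0%, 1.9% and 13.3% of them, respectively. The longer palindrome with GT before and AC after CACGTG was present in 0.24% of all promoters, in 1 of the 60 and in 0 of the 6 of genes that rose. These matches describe the letters in the windows and no binding was measured.

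Gpnmb showed the largest rise of the 7. It was measured at 278, 362 and 418 CPM in Control and at 625, 787 and 1232 CPM in Tazemetostat cultures. With Tat it was measured at 297, 318 and 256 CPM, and with Tat and tazemetostat at 633, 1221 and 696 CPM. All 6 libraries with the compound thus lay above all 6 without it. The pooled log2 fold change was 1.39 ± 0.22 (SE, FDR = 0.00704), a 2.61-fold rise, made up of 1.28 ± 0.32 without Tat and 1.49 ± 0.32 with it. The difference between the backgrounds was 0.21 ± 0.45 (FDR = 1.00 over all genes), so that no dependence on Tat was detectable. Without Tat-Tazemetostat replicate 2 the log2 fold change was 1.24 and the FDR 0.0673, without Tazemetostat replicate 3 the FDR was 0.0786, and without Control replicate 1 it was 0.0616. In the other 9 fits that left out a library Gpnmb passed the test.

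Ctsd was among the abundant transcripts of the cultures. Control cultures held 1013, 1418 and 1089 CPM and Tazemetostat cultures 1587, 1948 and 1759 CPM. Tat cultures held 933, 1393 and 1215 CPM and Tat-Tazemetostat cultures 1626, 2624 and 1814 CPM. The groups did not overlap in either background, and the highest value was again that of Tat-Tazemetostat replicate 2. The pooled log2 fold change was 0.68 ± 0.14 (SE, FDR = 0.0498), or 1.60-fold.

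Atg5, Snx8 and Sptlc1 changed by less, but with a narrow spread. Atg5 was at 31.9, 32.3 and 33.5 CPM in Control against 37.8, 37 and 37.7 CPM in Tazemetostat cultures, and at 32.7, 32.1 and 35.9 CPM in Tat against 41.5, 42.6 and 39.1 CPM in Tat-Tazemetostat cultures. Its log2 fold change was 0.24 ± 0.05 (SE, FDR = 0.0498). The lowest library with the compound was above the highest without it in both backgrounds. Snx8 was at 32.9, 36.2 and 36.1 CPM in Control and 41.1, 40.7 and 43.9 CPM in Tazemetostat cultures. With Tat it was at 34.7, 30.9 and 28.9 CPM, and at 39, 49.4 and 40.4 CPM once tazemetostat was added. Its groups were apart in both backgrounds too, and the log2 fold change was 0.35 ± 0.06 (SE, FDR = 0.0157). Sptlc1 was at 55.3, 58.7 and 60.9 CPM in Control and at 67.5, 63.8 and 71.8 CPM in Tazemetostat cultures. It was at 62.7, 57.3 and 58.1 CPM in Tat and at 75.5, 76.9 and 67.6 CPM in Tat-Tazemetostat cultures. These ranges did not overlap, with a log2 fold change of 0.26 ± 0.05 (SE, FDR = 0.0498).

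Nt5dc2 was at 45.4, 42.5 and 55.8 CPM in Control against 64.4, 65.5 and 71.8 CPM in Tazemetostat cultures, and at 35.5, 40.9 and 39 CPM in Tat against 50.4, 61.5 and 70.1 CPM in Tat-Tazemetostat cultures. The pooled log2 fold change was 0.57 ± 0.11 (SE, FDR = 0.0498), again without overlap. AC128792.2 was at 41.6, 63.9 and 53.1 CPM in Control against 74.0, 89.7 and 89.6 CPM in Tazemetostat cultures, and at 47, 63.0 and 50.6 CPM in Tat against 72.0, 144 and 84.6 CPM in Tat-Tazemetostat cultures. Its log2 fold change was 0.77 ± 0.15 (SE, FDR = 0.0498). This identifier was not matched in the RefSeq table. Over all 48 libraries its log2 values followed those of LOC100360087, which RefSeq lists as a ferritin light chain gene (Pearson r = 0.978, a description over libraries that share groups). Ferritin light chain has many near-identical copies in the rat, so that reads may be split among them and AC128792.2 is uncertain. LOC100360087 itself had a log2 fold change of 0.62 ± 0.15 (FDR = 0.111), and the heavy chain gene Fth1 one of 0.20 ± 0.12 (FDR = 0.764).

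Of the 12 fits that left out a library, 3 called no gene, those without Tazemetostat replicate 3, Control replicate 1 or Tat-Tazemetostat replicate 2, and the most any of them called was 6. Snx8 passed in 8 of these 12 fits, AC128792.2, Ctsd and Nt5dc2 in 2 each, and Sptlc1 and Atg5 in 1 each. A fit to the 12 libraries alone, whose spread is estimated from fewer cultures, called 0 genes, with an FDR of 0.279 for Gpnmb and 885 genes at an unadjusted p under 0.05.

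**Figure D1:**
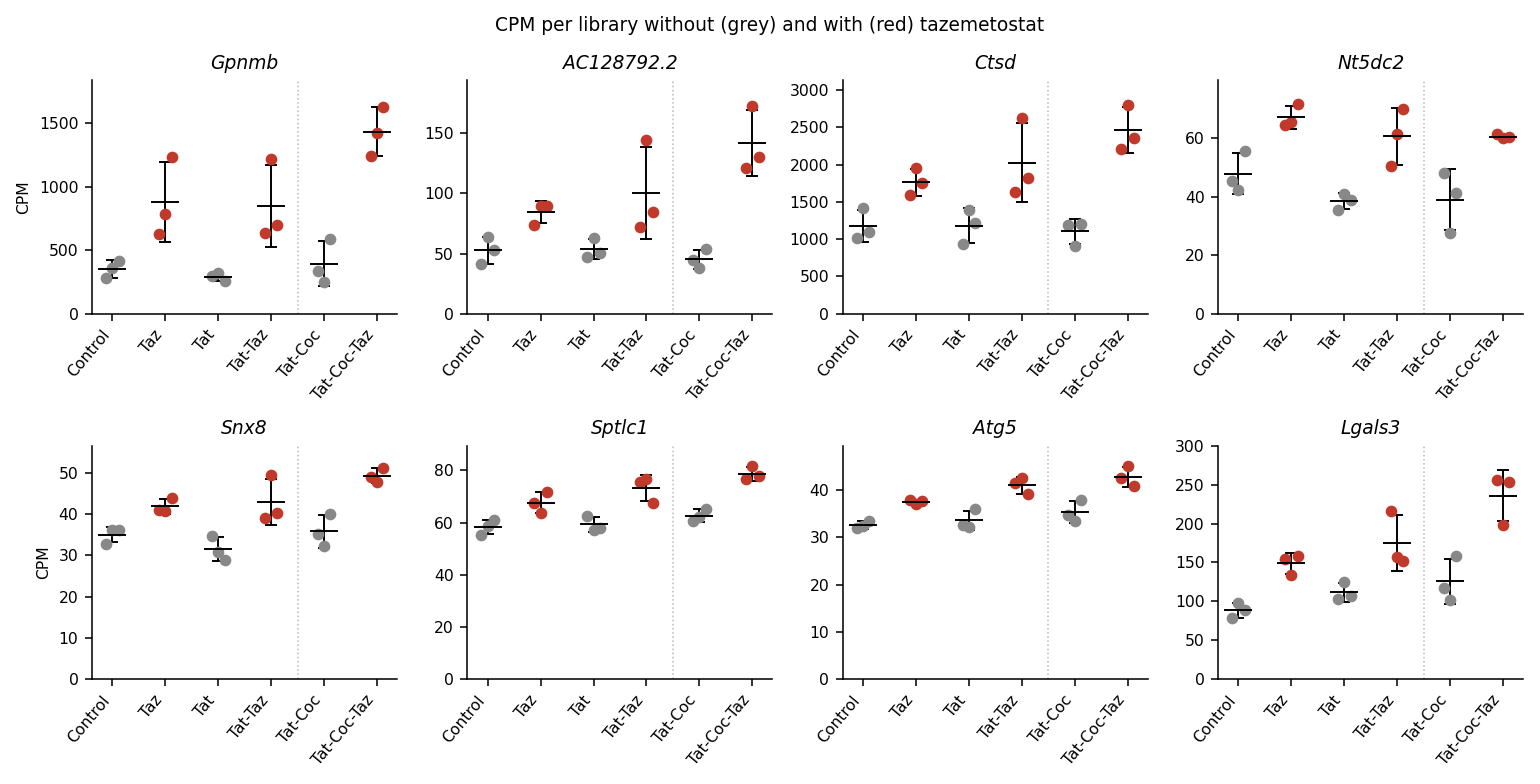
CPM of each library (points) with the group mean and SD (black bars) for the 7 genes that rose and for Lgals3, which did not pass the test; grey, without tazemetostat; red, with it; right of the dotted line, cultures that also received cocaine. In both backgrounds without cocaine every red point is above every grey one, as for Gpnmb, at 625 to 1232 CPM against 278 to 418 CPM without Tat.

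No gene passed the test in the direction of a fall, and 489 were lower at an unadjusted p under 0.05. When replicate numbers were blocked in the fit to all 48 libraries, 11 genes were called lower and 28 higher. The numbers paired the libraries without Tat, and those with Tat except number 1. Control and Tat libraries of the same number, which that block also joins, did not pair (correlation -0.103, 0.302 and -0.567). The genes with the smallest p among those whose groups did not overlap in either background were AABR07028902.1, Kptn, Acat1, Per2 and Idh3b. Groups did not overlap in both backgrounds for 131 genes that were higher (0.824% of those tested) and 64 that were lower (0.403%). Per2, a repressor of the circadian clock, was at 38.3, 37 and 31.5 CPM in Control against 30.2, 30.3 and 23.4 CPM in Tazemetostat cultures, and at 32.1, 32 and 30.7 CPM in Tat against 25.1, 24.4 and 26.5 CPM in Tat-Tazemetostat cultures. The log2 difference was -0.33 ± 0.07 (FDR = 0.0724). Acat1, the mitochondrial thiolase of ketone and isoleucine breakdown, had 79.0, 81.9 and 79.8 CPM in Control and 58.1, 69.0 and 62.4 CPM in Tazemetostat cultures, while with Tat it had 64.4, 64.1 and 64.7 CPM without and 53.4, 59.1 and 59.1 CPM with the compound. Its log2 difference was -0.26 ± 0.06 (FDR = 0.0578). The difference was -0.18 ± 0.04 for Idh3b (FDR = 0.0947), a subunit of isocitrate dehydrogenase of the citric acid cycle, and -0.28 ± 0.06 for Kptn (FDR = 0.0578), part of a complex that restrains mTORC1. For AABR07028902.1 it was -0.33 ± 0.07 (FDR = 0.0578). In the fit with the block, the FDR of limma was 0.0284 for AABR07028902.1, 0.032 for Kptn, 0.0195 for Acat1, 0.0453 for Per2 and 0.0585 for Idh3b.

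Given apart, neither background had a gene past the threshold. Without Tat, the unadjusted p was under 0.05 for 394 higher genes (2.48%) and 182 lower ones (1.15%), and the smallest FDR was 0.598. The smallest p-values belonged to Fos (log2 fold change 0.82 ± 0.19) and Egr1 (0.85 ± 0.20), both induced within minutes of stimulation, and to Acat1 (-0.35 ± 0.08). With Tat these were 427 (2.69%) and 424 (2.67%), and the smallest FDR, 0.0518, was shared by genes that included Snx8 and Kptn. Bche, butyrylcholinesterase, had the smallest p of that background, with a mean of 2.08 CPM in Tat and 0.748 CPM in Tat-Tazemetostat cultures. The effect differed between backgrounds for 0 genes by the interaction test of limma, while at an unadjusted p under 0.05 the log2 fold change with Tat minus that without it was above 0 for 108 genes (0.680%) and below 0 for 163 (1.03%). The smallest FDR of that test was 0.46, for Fgf10, with a mean of 1.13 CPM in Control, 3.19 in Tazemetostat, 6.71 in Tat and 2.67 in Tat-Tazemetostat cultures. Fos had a difference of -1.09 ± 0.26 (FDR = 1.00), being at 22.2 to 34 CPM in Control, 49.6 to 50.6 in Tazemetostat, 32.1 to 42.5 in Tat and 26.8 to 35 in Tat-Tazemetostat cultures. Across the 15890 genes the log2 fold changes of both backgrounds, which share no library, had a Pearson correlation of 0.328, where genes are not independent replicates.

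Control and Tazemetostat libraries of the same replicate number deviated together from their group means (correlation 0.655, 0.454 and 0.814 for numbers 1 to 3). With the number as a block in a fit to these 6 libraries, which leaves 2 residual degrees of freedom per gene, 13 of 14964 genes were called (0.0869%), 11 higher (0.0735%) and 2 lower (0.0134%). With the block in the fit to all 48 libraries the count was 0. Of the genes called in pairs, Gpnmb, Trem2 (log2 fold change 0.52, FDR = 0.0493), Cd300a (0.80, FDR = 0.0493) and Fcgr2a (0.76, FDR = 0.0493) encode proteins of phagocytes, the last 3 of them surface receptors. Ifi30 (0.91, FDR = 0.0493) is a lysosomal thiol reductase and Mfsd1 (0.55, FDR = 0.0493) a lysosomal transporter. Trem2 shows how the pairing bears on the call. It was at 25.2, 46.5 and 33.1 CPM in Control replicates 1, 2 and 3 and at 36.3, 66.1 and 48.7 CPM in the Tazemetostat replicates of the same numbers. The groups overlapped, but each Tazemetostat library was above the Control library of its number. Ccn1 (0.76, FDR = 0.0332), Thbs2 (0.99, FDR = 0.0341), Egr1 (0.85, FDR = 0.0493), Tubb6 (0.53, FDR = 0.0493) and AC128792.1 (0.68, FDR = 0.0493) were the other genes that rose. Sphkap (-0.58, FDR = 0.0493) and Pgm2l1 (-0.53, FDR = 0.0493) fell. These FDR values are those of limma in the paired fit. Of the Tat and Tat-Tazemetostat libraries, those of number 1 did not pair in this way, while those of numbers 2 and 3 did (0.009, 0.702 and 0.565 for numbers 1 to 3).

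A further background, Tat with cocaine (25 µM for 24 h), shares no library with those above. All 7 genes were higher there as well (FDR = 0.000146 to 0.0091), where 28.7% of the genes tested were called, 15.2% higher and 13.4% lower, and where 23% and 19.9% passed an unadjusted p of 0.05 in these directions. The 4554 calls of this comparison depended on single cultures, with 174 without Tat-Cocaine-Tazemetostat replicate 2, 2895 without its replicate 1, 262 without Tat-Cocaine replicate 1 and 763 without its replicate 2. Gpnmb was at 338, 248 and 591 CPM in Tat-Cocaine cultures and at 1247, 1426 and 1633 CPM in Tat-Cocaine-Tazemetostat cultures, a log2 fold change of 1.96 ± 0.32. Ctsd was at 1189, 910.3 and 1208 CPM against 2214, 2804 and 2353 CPM, with a log2 fold change of 1.16 ± 0.20. The groups did not overlap for either gene. Of the 5 genes named above as lower, AABR07028902.1 (-0.45 ± 0.10, FDR = 0.00607) and Idh3b (-0.26 ± 0.06, FDR = 0.00696) fell there, whereas Kptn (-0.03 ± 0.09, FDR = 0.783), Acat1 (0.00 ± 0.08, FDR = 0.995) and Per2 (-0.13 ± 0.10, FDR = 0.349) did not pass the test. Of the 739 genes higher at an unadjusted p in the pooled comparison, 91.1% were also higher with Tat and cocaine and 46.7% were called higher, and of the 489 that were lower the shares were 85.1% and 28.4%. Over all genes tested 69.3% had the same sign. With Tat and cocaine, 7 of the 13 myeloid markers were called higher and 12 of the 16 neuronal markers lower, and their part in these values was not tested.

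**Figure D2:**
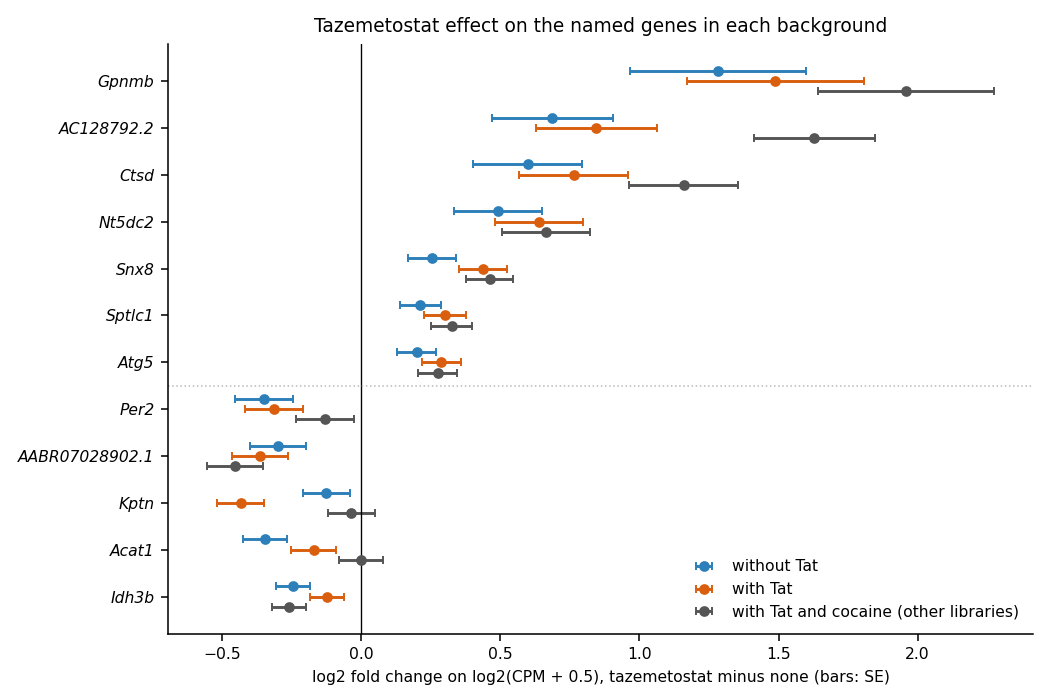
Log2 fold change on log2(CPM + 0.5) with its SE for the 7 genes that rose (above the dotted line) and the 5 lower genes that did not pass the test (below it), in cultures without Tat, with Tat, and with Tat and cocaine. Gpnmb lies at 1.28, 1.49 and 1.96 and Atg5 at 0.20, 0.29 and 0.27, while Kptn and Acat1 are near 0 with Tat and cocaine.

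Senicapoc, a blocker of the potassium channel KCa3.1 given at 1 µM in the same 2 backgrounds, allowed a comparison that leaves out the Control and Tat libraries but uses the same Tazemetostat libraries. All 7 genes were higher with tazemetostat than with senicapoc (FDR = 0.000518 to 0.0316), where 5.29% of the genes tested were called higher and 6.12% lower. These 1813 calls became 58 without Tat-Tazemetostat replicate 2 and 130 without Tat-Senicapoc replicate 1. Of the 16 neuronal markers 8 were called lower with tazemetostat than with senicapoc (median -0.755). The 13 myeloid markers had a median of 0.557, with 11 above 0 and 0 called. The part of these cells in the comparison was not tested. The log2 difference was 1.16 ± 0.22 for Gpnmb and 0.77 ± 0.14 for Ctsd. Among all 16 groups of the series, the 3 with tazemetostat had the highest mean of Gpnmb, at 1435, 881 and 850.0 CPM, before Tat-Cocaine-Senicapoc at 715 CPM, from which the last 2 did not differ beyond their SD. Ctsd and Nt5dc2 also had their highest means in the same 3 groups, but Cocaine cultures came next at 1585 ± 524 CPM for Ctsd and 59.6 ± 17.5 CPM for Nt5dc2 (SD, n = 3), not apart beyond that spread. AC128792.2 had its highest means in 4OI (4-octyl itaconate, 157.1 CPM) and Tat-Cocaine-4OI cultures (149.2 CPM), followed by Tat-Cocaine-Tazemetostat at 141.7 CPM, and Atg5 its highest in Tat-Cocaine-Amlexanox cultures at 43.1 CPM. Sptlc1 and Snx8 were highest in Tat-Cocaine-Tazemetostat cultures. In Tazemetostat cultures Sptlc1 ranked 7 of 16 at 67.7 CPM, below 4OI at 69.6 CPM. Snx8 ranked 4 there at 41.87 CPM, behind Tat-Cocaine-Senicapoc at 41.89 CPM.

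Since Gpnmb and Ctsd are lysosomal, lists of lysosomal genes were drawn up after these values had been seen, and no test was made on them. Of 75 lysosomal genes tested, 68 had a pooled log2 fold change above 0 (90.7%, against 49.5% of all genes), with a median of 0.189 against -0.002. The change was above 0 in both backgrounds for 59 of them (78.7%, against 30.9% of all genes). At an unadjusted p under 0.05, 27 were higher (36%, against 4.65% of all genes) and 0 lower (against 3.08%), but Ctsd alone passed the FDR. Without Tat-Tazemetostat replicate 2, 66 of 75 were above 0, the median was 0.134, and 18 were higher and 0 lower at an unadjusted p, beside 535 higher of all genes.

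Among the proteases, 7 of 16 were higher at an unadjusted p, with a median of 0.215. The counts of the lysosomal and phagocyte lists are to be read beside the same 4.65% of all genes, and without Tat-Tazemetostat replicate 2 they were 4 for the proteases, 11 for the hydrolases, 2 for the membrane proteins, 2 for autophagy and 3 for the phagocyte genes. Ctsb, which encodes cathepsin B, had a log2 fold change of 0.41 ± 0.12 (FDR = 0.248), and Ctsa, which protects other lysosomal enzymes, 0.40 ± 0.13 (FDR = 0.272). Ctsl, the gene of cathepsin L, was at 0.15 ± 0.15 (FDR = 0.901). Of 32 hydrolases of sugars, lipids and nucleic acids, 14 were higher, with a median of 0.189. Hpse, the heparanase that cuts heparan sulfate, was at 18.1, 20.7 and 14.4 CPM in Control and 25.5, 30.6 and 26.4 CPM in Tazemetostat cultures. With Tat it was lower, at 3.14, 4.64 and 5.91 CPM without and 8.88, 9.41 and 14.3 CPM with the compound. Its groups did not overlap in either background, and the pooled log2 fold change of 0.90 ± 0.19 narrowly missed the threshold (FDR = 0.0533). Pld3, an exonuclease of lysosomes, was at 381 to 440.0 CPM in Control, 484 to 541 in Tazemetostat, 396 to 449 in Tat and 529 to 649 in Tat-Tazemetostat cultures. It differed by 0.36 ± 0.08 (FDR = 0.0578). Grn, the gene of the lysosomal protein progranulin, differed by 0.55 ± 0.18 (FDR = 0.288) and Npc2, a carrier of cholesterol, by 0.39 ± 0.14 (FDR = 0.395), the leading members of the 6 activators and other luminal proteins (median 0.278, or 0.125 without Tat-Tazemetostat replicate 2).

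The membrane of the lysosome showed smaller differences, with a median of 0.137 over 21 genes and 4 of them higher at an unadjusted p. Slc66a1, a transporter of cationic amino acids, had 0.36 ± 0.09 (FDR = 0.111) and the calcium channel gene Mcoln1 0.20 ± 0.08 (FDR = 0.461). The 16 subunit genes of the V-ATPase, the pump that acidifies the lysosome, had a median of 0.015 (0.037 without Tat-Tazemetostat replicate 2), and 0 of them were higher or lower at an unadjusted p. Among the factors that control lysosomal genes, Tfeb (0.14 ± 0.14), Tfe3 (0.07 ± 0.08) and Mitf (-0.01 ± 0.08) did not pass the test at the level of their transcripts (FDR = 0.901, 0.928 and 0.991). The autophagy list, which holds Atg5, had a median of 0.056 with 4 of 25 higher.

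Genes of phagocytes that handle lipids had a median of 0.221, with 16 of 18 above 0 and 5 higher at an unadjusted p, Gpnmb among them. Lgals3, the gene of galectin-3, a marker of damaged lysosomes and reactive microglia, was at 78.1, 97.7 and 89.1 CPM in Control against 154, 134 and 158 CPM in Tazemetostat cultures, and at 103, 125 and 106 CPM in Tat against 216, 157 and 152 CPM in Tat-Tazemetostat cultures. The groups were apart in both backgrounds, and the log2 fold change was 0.69 ± 0.14 (FDR = 0.0533). Trem2 and Spp1, both high in reactive microglia, had 0.86 ± 0.36 each (FDR = 0.507 and 0.508), with overlap between groups. Apoe had 0.28 ± 0.13 (FDR = 0.583).

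**Figure D3:**
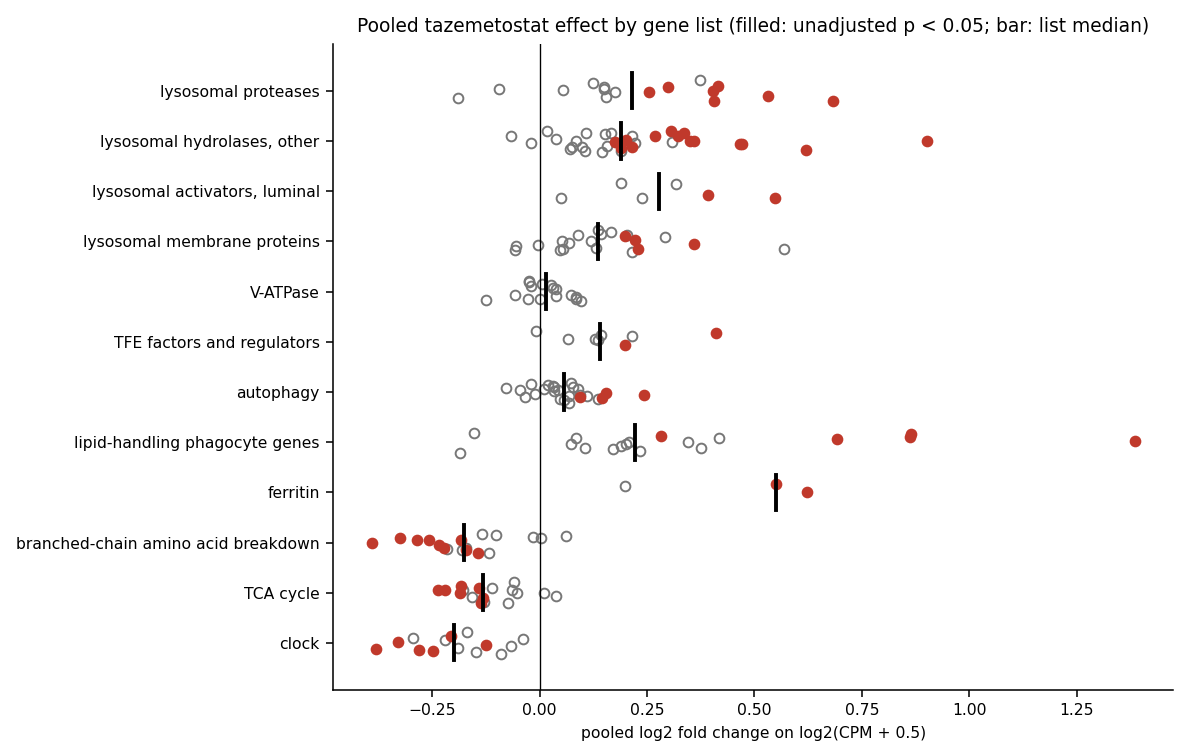
Pooled log2 fold change on log2(CPM + 0.5) of each gene (points) in 12 lists written after the values were seen, with the list median as a bar; filled points have an unadjusted p under 0.05. Most points of the lysosomal lists lie to the right of 0, with medians of 0.137 to 0.278 (0.098 to 0.175 without Tat-Tazemetostat replicate 2), the V-ATPase is centred near 0 at 0.015, and the branched-chain amino acid, citric acid cycle and clock lists have medians to the left, at -0.176, -0.132 and -0.199.

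Markers of microglia moved in the same direction as the lysosomal genes, though none was called. Of the 13 myeloid markers 10 were above 0 with a median of 0.275, and of 10 homeostatic microglial markers tested 7 were above 0 with a median of 0.276. The smallest FDR among the myeloid markers was 0.507, that of Trem2. The summed myeloid markers ranged from 829 to 1585 CPM in Control and from 1205 to 1583 CPM in Tazemetostat cultures. With Tat the range was 2871 to 5828 CPM without and 2797 to 7380 CPM with the compound. Both ranges overlapped. Without Tat-Tazemetostat replicate 2 the medians were 0.071 and 0.076. Csf1r, the receptor on which microglia depend, had 0.32 ± 0.28 (FDR = 0.873) and P2ry12, of resting microglia, 0.27 ± 0.41 (FDR = 0.943). Of 9 border macrophage markers tested, 8 were above 0 (median 0.370), led by the chemokine gene Pf4 at 0.82 ± 0.26 (FDR = 0.273), whose groups did not overlap. Their sum was 1142 to 1452 CPM in Control and 1549 to 1680 CPM in Tazemetostat cultures, without overlap, but overlapped with Tat, at 452.9 to 787.9 CPM and 764.4 to 1445 CPM. In bulk libraries more cells of a type and more RNA per cell cannot be told apart, and the part of these cells in the rises was not tested.

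Among the other cell types, 15 of 16 neuronal markers were below 0 with a median of -0.172. Without Tat-Tazemetostat replicate 2 the median was -0.006, and 8 of the 16 were above 0. All 10 oligodendrocyte markers were below 0 (median -0.682, or -0.233 without that library), and 0 passed even the unadjusted threshold. Their sum varied within Control alone from 294 to 1624 CPM and within Tat from 409.5 to 2552 CPM. Of 11 astrocyte markers 4 were above 0, with a median of -0.155 (-0.061 without Tat-Tazemetostat replicate 2). Gfap, the intermediate filament of reactive astrocytes, was at 4447, 4044 and 4756 CPM in Control and 6297, 6684 and 6670 CPM in Tazemetostat cultures, without overlap. It overlapped with Tat, and the pooled change was 0.49 ± 0.18 (FDR = 0.401). Aqp4, the water channel of astrocyte endfeet, was at -0.26 ± 0.11 (FDR = 0.544), and its groups did not overlap in either background. The medians of the precursors of oligodendrocytes (-0.083), of endothelial and mural cells (-0.107), of meningeal fibroblasts (-0.245) and of ciliated cells (0.115) included no called gene. Without Tat-Tazemetostat replicate 2 the precursors were at 0.164 and the ciliated cells at -0.076, so that both changed sign.

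**Figure D4:**
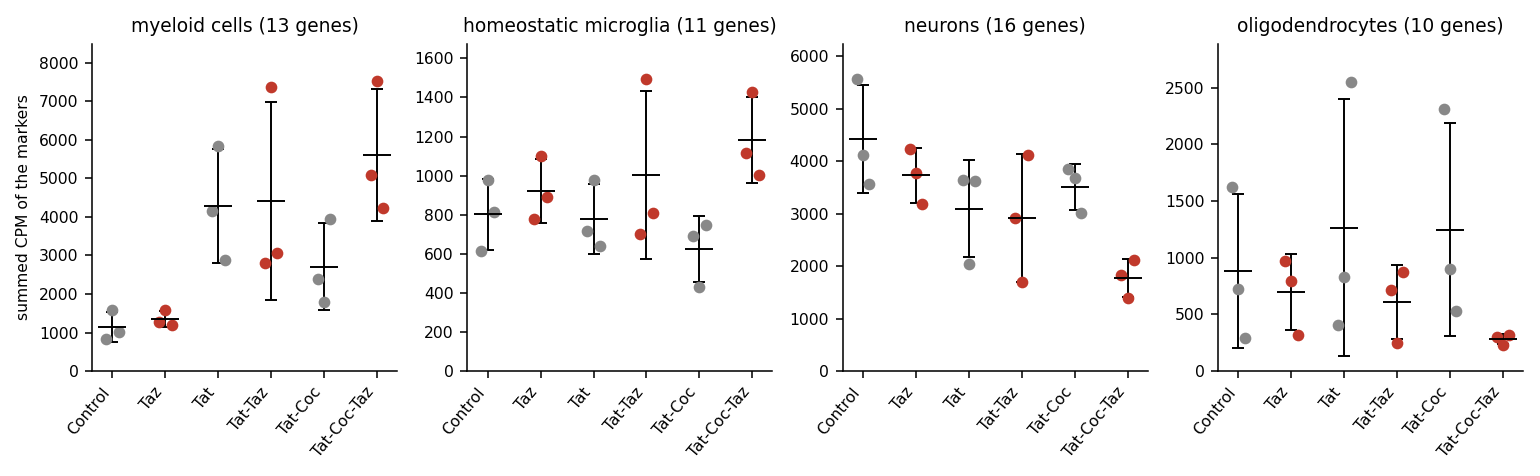
Summed CPM of the markers of 4 cell types in each library (points) with the group mean and SD (black bars); grey, without tazemetostat; red, with it. The myeloid sums overlap between groups without cocaine, 829 to 1585 CPM against 1205 to 1583 CPM without Tat, and 1 Tat-Tazemetostat library stands at 7380 CPM.

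Neither the target of the compound nor its partners passed the test at the level of RNA. Ezh2 was at 11.2, 13.1 and 17.2 CPM in Control, 12.7, 15 and 19 CPM in Tazemetostat, 14.4, 20.4 and 11.3 CPM in Tat and 15.2, 17.5 and 15.2 CPM in Tat-Tazemetostat cultures. The groups overlapped, and the log2 fold change was 0.13 ± 0.15 (FDR = 0.926). An inhibitor of the enzyme need not alter its transcript, so that this is no check of the treatment. Ezh1 differed by -0.06 ± 0.08, Eed by 0.07 ± 0.07 and Suz12 by 0.00 ± 0.05. Among the 11 PRC2 genes, Aebp2, an accessory subunit, had the smallest p, with 0.19 ± 0.09 (FDR = 0.625), and Jarid2, another accessory subunit, was at -0.18 ± 0.09 (FDR = 0.659). Mtf2 (0.15 ± 0.08), Rbbp7 (0.05 ± 0.05), Rbbp4 (0.02 ± 0.04), Phf1 (0.01 ± 0.09) and Phf19 (0.06 ± 0.19), also partners or histone-binding subunits, completed the list. Its median was 0.053, and 0 of 11 were called. Of 17 genes of PRC1, the complex that reads the mark, Bmi1 was at 0.23 ± 0.07 (FDR = 0.216) and 0 were called. The demethylase genes Kdm6a and Kdm6b, which remove the mark, were at 0.07 ± 0.07 and -0.05 ± 0.07.

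Hox genes, which PRC2 is known to keep silent, were near the limit of detection. None of the 39 Hox genes listed reached the minimum for testing, 25 of the 37 in the table were at 0 in all 12 libraries, and the sum of the 37 was 0.0908 to 0.153 CPM in Control and 0.195 to 0.359 CPM in Tazemetostat cultures, a few reads per library, without overlap. With Tat the sums overlapped, at 0 to 0.236 CPM without and 0.0508 to 0.252 CPM with the compound. In Senicapoc cultures the sum was 0.201 to 0.503 CPM, also above Control. With Tat and cocaine it was 0.0403 to 0.213 CPM without tazemetostat and 0 to 0.051 CPM with it. Of 67 developmental transcription factors of other lineages, 25 were tested. They had a median of 0.018 (-0.054 without Tat-Tazemetostat replicate 2), 0 were called, and 0 had an unadjusted p under 0.05 in either direction. Cdkn2a, a cell cycle inhibitor under PRC2 control in many cells, was at 0.920, 1.57 and 2.81 CPM in Control and 2.42, 2.69 and 3.00 CPM in Tazemetostat cultures. It was at 5.48, 7.45 and 2.51 CPM in Tat and 4.39, 11.5 and 3.04 CPM in Tat-Tazemetostat cultures, with a pooled log2 fold change of 0.38 ± 0.32 (FDR = 0.873). The 23 cell cycle genes tested were all above 0, with a median of 0.259, and 0 passed even the unadjusted threshold.

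The remaining lists held no called gene in the pooled comparison. Immediate-early genes had 4 of 12 higher at an unadjusted p, among them Egr1, at 32.1, 36 and 41.1 CPM in Control and 54.3, 61.5 and 84.9 CPM in Tazemetostat cultures. With Tat Egr1 overlapped, at 31.8 to 45.8 CPM without and 44.1 to 70.4 CPM with the compound, and the pooled change was 0.65 ± 0.14 (FDR = 0.0706). Cholesterol synthesis genes had 4 of 18 higher with a median of 0.099, led by Cyp51, a demethylase of lanosterol (0.40 ± 0.11, FDR = 0.168). ATF4 stress targets had 3 of 14 higher (median 0.190) and Nrf2 targets 2 of 18 (median 0.047), among them Hmox1, the gene of heme oxygenase 1, at 0.46 ± 0.16 (FDR = 0.364). Of 15 complement genes 2 were higher, with C1qc at 0.62 ± 0.29 (FDR = 0.598). The pooled counts of higher genes stand beside 4.65% of all genes tested. Without Tat-Tazemetostat replicate 2 they were 3 for the immediate-early, 2 for the cholesterol, 0 for the ATF4, 2 for the Nrf2 and 0 for the complement list. The Nrf2 median was then 0.009, and the complement median 0.027 in place of 0.127. The inflammatory lists had medians of -0.010 for cytokines and chemokines, -0.038 for NF-kB targets, -0.222 for the interferon response and -0.210 for MHC class II. Without Tat-Tazemetostat replicate 2 these were -0.149, -0.110, -0.304 and -0.340. The lists of extracellular matrix (-0.135), BMP and TGF-beta signalling (-0.075) and Wnt signalling (-0.071) were also without a call, the last 2 at -0.041 and -0.027 without that library.

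Following the lower genes Acat1, Idh3b and Per2, lists for their pathways were written after the values had been seen, and are likewise a description. The counts below include these genes themselves, which were picked for being lower. Of 18 genes for the breakdown of branched-chain amino acids, 16 were below 0 with a median of -0.176, and 9 were lower and 0 higher at an unadjusted p, beside 3.08% of all genes. Bckdha and Bckdhb, which encode both chains of the branched-chain dehydrogenase E1, had -0.22 ± 0.05 (FDR = 0.0787) and -0.39 ± 0.10 (FDR = 0.111). Of 17 genes of the citric acid cycle 15 were below 0 (median -0.132), 7 of them lower at an unadjusted p. Without Tat 6 of the 17 were lower (median -0.194), beside 1.15% of all genes. With Tat 0 were lower (median -0.072), beside 2.67%. Of 14 clock genes all were below 0 (median -0.199), with 6 lower. Nr1d1, the repressor REV-ERB alpha, had -0.25 ± 0.09 (FDR = 0.346). Without Tat-Tazemetostat replicate 2 the medians of the 3 lists were -0.156, -0.109 and -0.111, with 10, 5 and 4 genes lower. With Tat and cocaine the medians were 0.006, -0.120 and -0.467, and 3 of 18 branched-chain, 6 of 17 citric acid cycle and 7 of 14 clock genes fell, beside 13.4% of all genes.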

How the data were processed

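RNA was measured as strand-specific poly(A) libraries sequenced from both ends. The authors trimmed reads with Trim Galore 0.4.5, aligned them with STAR 2.7.2 and counted unique reads per gene with featureCounts (Subread 1.5.3). The signal the authors deposited is CPM after TMM scaling in edgeR. The paper names build Rnor_6.0 and the submitters' processing notes mRatBN7.2, so that no positions were taken from the files. The authors' own fold changes and p-values were not used. Only 78.1 to 86.9% of the values were whole reads within 0.02 in the 12 libraries, so that count tests were not run. Genes with at least 0.5 CPM (9.35 to 13.2 reads) in at least 3 of 48 libraries were fitted as log2(CPM + 0.5) with limma 3.58.1 in R 4.3.3, with 16 group means, eBayes with a trend and Benjamini-Hochberg adjustment. Replicates differed by more than counting error (chi-square per degree of freedom 15.3 to 80.7). The groups compared and the gene lists were chosen with earlier results of these data known, and 12 of the lists after the values were seen. Named are called genes of at least 1 CPM whose groups did not overlap (up to 10 per direction, or the 5 of smallest p where fewer than 5 qualified), PRC2 genes, and up to 4 leading members of each list written first. Others, such as the genes of single backgrounds, of the lysosomal and metabolic lists and of the paired fit, were chosen after their values were seen. The same-numbered correlations that decided the pairing are given with its result. Alternatives were other pseudocounts, filters, scalings, weights, blocks and sets of libraries. The fit was tested on simulated data. Members of the lists that the table does not hold under these symbols were not analysed here.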

Additional observations from a re-analysis of the deposited data

How the results depend on the processing

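Of the 12 genes refitted under each alternative (the 7 that rose and the 5 lower genes named with them), 0 changed sign. The other genes named were not refitted. For the pooled effect the 7 calls became 2 with a pseudocount of 0.1 CPM, with no filter or without the limma trend, 14 (8 higher, 6 lower) with median ratio rescaling, 13 (10 and 3) with quantile normalization, 38 (23 and 15) with array quality weights, 0 in the compared groups alone, and 0 to 6 when 1 library was left out. With the replicate number as a block it became 39 (28 higher, 11 lower), and 44 (37 and 7) with the block within each background in the compared groups alone. By their labels Tat and Tat-Tazemetostat libraries share only a number. Replicates 2 and 3 deviated together with their namesakes (correlation 0.702 and 0.565). Replicate 1 did not (0.009), and not every library correlated best with its own number. Tazemetostat alone had 2 calls with no filter and 13 with the block within its background. With Tat the 0 calls became 5 with a pseudocount of 2 CPM, 3 with median ratio rescaling, 2 with quantile normalization, 6 without the trend, 13 with array quality weights, 16 with the replicate block and 0 to 6 when 1 library was left out, the 6 without Tat replicate 3. The test of the difference between backgrounds gave 0 in each fit run. Tazemetostat with Tat and cocaine went from 4554 to 8492 calls with array quality weights, to 0 with the block in the compared groups alone, and to 174 (without Tat-Cocaine-Tazemetostat replicate 2) to 5865 with 1 library left out. Tazemetostat against Senicapoc went from 1813 to 1035 with no filter, 6073 with array quality weights, 3688 with the replicate block, 885 in the compared groups alone, and 58 (without Tat-Tazemetostat replicate 2) to 3649 with 1 library left out. The cause of these shifts was not tested. Over the 11 settings that kept all 12 libraries compared, Gpnmb passed in 10, Snx8 in 9, AC128792.2, Ctsd and Nt5dc2 in 7 each, Atg5 in 6 and Sptlc1 in 5. Array quality weights were estimated gene by gene, because the default estimate did not converge. At this depth a gene under 0.5 CPM had too few reads to be tested.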
